A study of Mus musculus with 6 samples.

Results

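The genes that make, take up, sense and move cholesterol were examined in haematopoietic stem cells of mice with 1 altered copy of Mecom. The set holds 36 genes picked by symbol for their role, and all 36 were found among the 18465 genes of the deposited table. They were split by role into 18 genes of mevalonate and sterol synthesis, 5 of SREBP control, 3 of uptake and 7 of transport or storage. Fads1, Fads2 and Lpin1, lipid genes that SREBP factors are known to regulate, fall in none of these roles and were kept as a group of 3.

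RNA came from SLAM-LSK cells of mouse bone marrow, a sorted fraction that lacks lineage markers and CD48, carries Sca-1, c-Kit and CD150, and is enriched for stem cells. One group held 3 libraries of wild-type (WT) C57BL/6 mice. The other held 3 libraries of C57BL/6 mice labelled MecomWT:R751W, with one wild-type Mecom allele and one R751W allele. No treatment, age or sex is given in the labels used here. The titles call each library a biological replicate (bio rep), but nothing there says that each came from a separate mouse. The p-values therefore measure only the spread between these libraries. The values are TPM, that is reads per gene length as parts of a fixed total, so levels may be compared between genes per length.

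Cholesterol is built from acetyl-CoA through mevalonate, the isoprenoid farnesyl diphosphate, squalene and lanosterol. The transcription factors SREBP-1 and SREBP-2 switch these genes on when sterols in the endoplasmic reticulum run low. SCAP carries SREBP to the Golgi for cleavage, and the INSIG proteins hold it back when sterols are plentiful. Oxysterols that build up with cholesterol activate the LXR nuclear receptors, which favour efflux and limit uptake.

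Whole reads could be recovered from the TPM values, and the libraries held 10427533 to 12378149 such reads, of which the 36 genes took 11958 to 17164. The median TPM over all genes lay from 8.34 to 8.55 in replicates 1 and 3 of both groups, but replicate 2 stood at 7.31 among the WT and 7.14 among the MecomWT:R751W libraries. Protein-coding genes took 25.9% of the TPM in WT replicate 2 and 26.0% in MecomWT:R751W replicate 2. In replicates 1 and 3 of both groups they took 28.9% to 30.1%. Of the gate's own markers, Kit was at 138 to 198 TPM and Slamf1, which encodes CD150, at 9.50 to 16.5 in the 6 libraries. Ly6a, which encodes Sca-1, was at 8.64 to 13.2 TPM. Procr, which is not part of the gate, was at 15.8 to 20.2 TPM. Cd48, which the sort excludes, was at 1.02 to 2.18 TPM in WT and 2.27 to 4.10 TPM in MecomWT:R751W. Mecom itself was at 34.9 to 42.9 TPM in WT and 40.0 to 50.9 TPM in MecomWT:R751W, and a gene total does not tell the alleles apart.

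Sterol genes lay mostly lower in MecomWT:R751W cells, by small amounts. Of the 36 genes, 35 passed the filter of a mean of at least 1 TPM over the 6 libraries, and 26 of these had a log2 fold change below 0 while 9 had one above 0. Below 0 were also 51% of all 16655 genes tested and 52% of the 11394 protein-coding genes tested. The median log2 fold change was -0.16 over the 35 genes and -0.0037 over all genes tested. At or under -0.3 were 13 of the 35, against 8.03% of all genes and 6.42% of protein-coding genes tested.

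No sterol gene passed an adjusted p of 0.05 by limma over all genes, and neither did any other gene (0 of 16655, 0%). At an unadjusted p under 0.05, 9 sterol genes were lower and 0 were higher, beside 3.23% of all genes lower and 2.74% higher (5.97% in all) and, in the same fit, 2.97% of protein-coding genes lower. All 3 MecomWT:R751W values lay under all 3 WT values for 9 of the 36 genes, a pattern shown by 5.12% of all rows of the table, 4.7% of all genes tested and 4.84% of protein-coding genes tested. These were Hmgcs1, Sqle, Cyp51, Hsd17b7, Srebf2, Stard4, Apoe, Nr1h2 and Fads2. None of the 36 showed the opposite pattern, which 4.6% of rows and 4.5% of genes tested did. In a fit over protein-coding genes alone, limma called 0.807% of genes lower and 0.351% higher, and 2 sterol genes, Apoe and Fads2, were among the lower ones. With limma-voom on the recovered reads of all genes tested the same 2 were called lower, beside 0.156% of genes lower and 0.144% higher. Over protein-coding genes rescaled to their own total, with 0.0726% of genes called lower and 0.0645% higher, Apoe alone of the 36 was called. The same held over protein-coding genes, not rescaled, with the replicate number as a block, with 0.211% lower and 0.0439% higher. Over protein-coding genes centred on the library median, with 0.0351% lower and 0.0614% higher, none of the 36 was called. In bulk samples fewer cells of a type and less RNA per cell cannot be told apart.

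**Figure D1:**
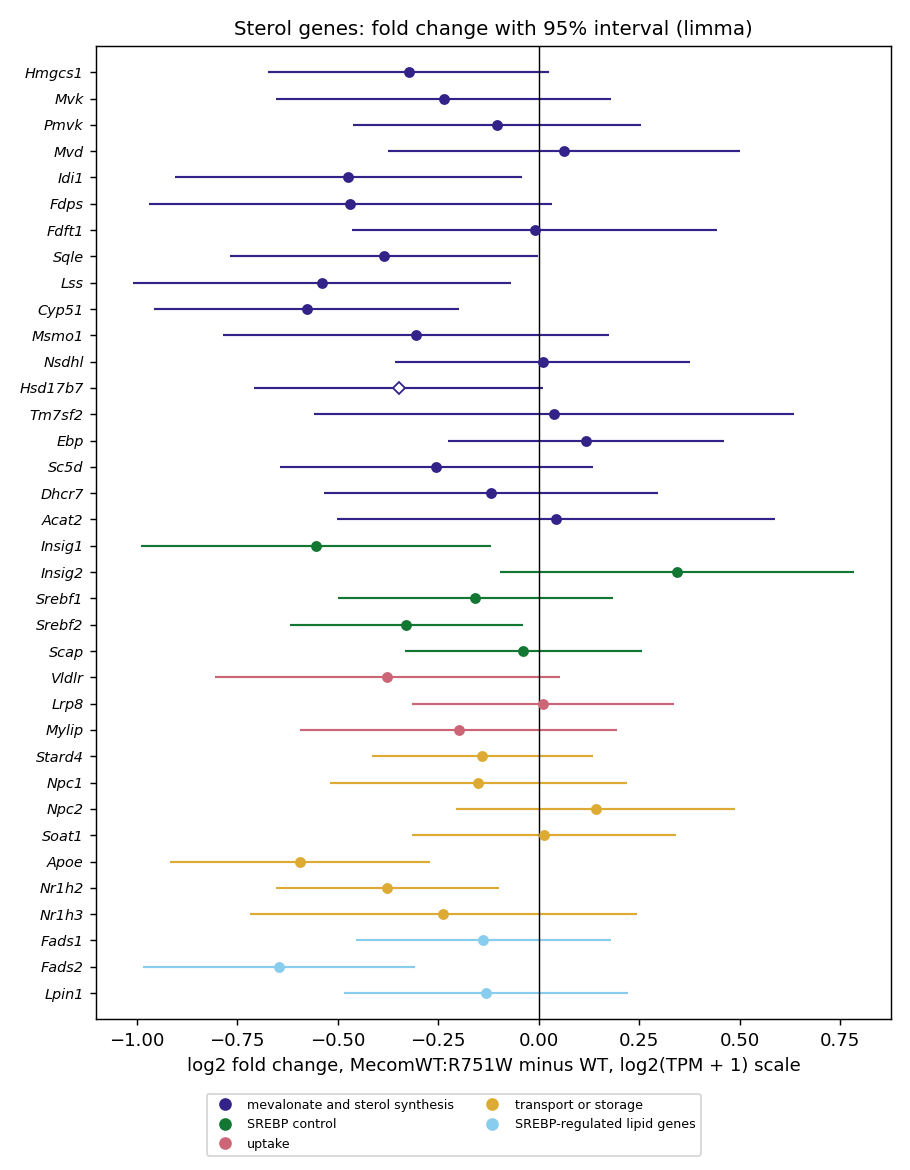
Log2 fold change of each of the 36 sterol genes, MecomWT:R751W minus WT on the log2(TPM + 1) scale (x axis), with its 95% interval from limma, coloured by role and in pathway order from top to bottom. Fads2 (-0.64), Apoe (-0.59) and Cyp51 (-0.58) lie farthest to the left and Insig2 (0.34) farthest to the right. The open diamond is Hsd17b7, which fell under the filter and was fitted with no filter.

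Mevalonate and sterol synthesis was the largest of the groups. Of its 17 tested genes 12 were below 0 and 5 above, with a median log2 fold change of -0.24 and a range from -0.58 to 0.12. The median was -0.15 without WT replicate 1, -0.14 without MecomWT:R751W replicate 2 and -0.09 with libraries weighted by their fit. Their expression was modest, from 0.904 TPM for Hsd17b7 to 10.9 TPM for Sqle as means of the 6 libraries. The lower genes were spread along the route, from the HMG-CoA synthase step to the lanosterol steps.

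Hmgcs1, the cytosolic synthase that condenses acetoacetyl-CoA with acetyl-CoA, lies on chromosome 13 from 119690351 to 119708260 in GRCm38. It was at 11.2, 9.60 and 10.7 TPM in the WT and 9.54, 7.07 and 8.09 TPM in the MecomWT:R751W libraries of replicates 1, 2 and 3. The groups did not overlap, although the lowest WT and the highest MecomWT:R751W library were close. The log2 fold change was -0.32 (SE 0.16).

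The kinases and the decarboxylase of the mevalonate steps had smaller fold changes. Mvk, mevalonate kinase, was at 3.91 ± 0.922 TPM in the WT and 3.13 ± 0.354 TPM in the MecomWT:R751W libraries (SD, n = 3 each), with overlapping groups and a log2 fold change of -0.24 that was -0.09 without WT replicate 1. Pmvk, which adds the next phosphate, stood at a log2 fold change of -0.10 (SE 0.17). Mvd, which makes isopentenyl diphosphate, was near the filter at 0.858 to 1.44 TPM with 12 to 22 reads a library.

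Idi1 and Fdps, which isomerise isopentenyl diphosphate and join the units into farnesyl diphosphate, had larger differences with wide spread. Idi1 was at 10.4, 7.05 and 10.6 TPM in the WT and 6.77, 7.62 and 4.94 TPM in the MecomWT:R751W libraries, a log2 fold change of -0.47 (SE 0.20). WT replicate 2 lay under MecomWT:R751W replicate 2, so the groups overlapped. Fdps was at 4.25 ± 1.14 and 2.80 ± 0.890 TPM, also overlapping, on 21 to 58 reads a library, and its log2 fold change of -0.47 (SE 0.23) was -0.26 without MecomWT:R751W replicate 2.

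Squalene and lanosterol steps held the synthesis genes with the largest differences. Fdft1, squalene synthase, had close means, at 1.72 ± 0.288 TPM in the WT and 1.73 ± 0.554 TPM in the MecomWT:R751W libraries, with a 95% interval of the log2 fold change from -0.46 to 0.44. Sqle, the epoxidase that follows, was at 15.9, 10.3 and 11.4 TPM in the WT and 9.33, 8.31 and 10.05 TPM in the MecomWT:R751W libraries. WT replicate 1 stood high and the other libraries of the 2 groups were close without overlap. Its log2 fold change was -0.38 (SE 0.18), and -0.21 without WT replicate 1.

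Lss closes the epoxide to lanosterol. It was at 4.47, 2.57 and 3.55 TPM in the WT and 2.69, 1.57 and 2.05 TPM in the MecomWT:R751W libraries. WT replicate 2 fell just under MecomWT:R751W replicate 1, so the groups overlapped by that pair, and the log2 fold change was -0.54 (SE 0.22).

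Cyp51, the lanosterol demethylase, showed the clearest difference of the synthesis genes. It lies on chromosome 5 from 4080674 to 4104697 in GRCm38. Its values were 14.2, 11.9 and 10.005 TPM in WT and 8.60, 6.43 and 8.12 TPM in MecomWT:R751W replicates 1, 2 and 3, on 223 to 465 reads a library. No MecomWT:R751W library reached the lowest WT library. The WT mean was 1.56 times the MecomWT:R751W mean. The log2 fold change of -0.58 (SE 0.17, 95% interval -0.96 to -0.20) did not pass over all genes (adjusted p = 0.544, limma) or over protein-coding genes (adjusted p = 0.056, limma). It passed with limma-voom over protein-coding genes (adjusted p = 0.0492), a fit that called 0.456% of genes lower and 0.334% higher. It also passed by limma over protein-coding genes without WT replicate 3 (adjusted p = 0.0264), where the share of all genes called was not counted. It did not pass with limma-voom over all genes tested (adjusted p = 0.0862). By limma over protein-coding genes it missed the threshold after rescaling (0.164), with the replicate block (0.132) and centred on the library median (0.171). With any other single library left out, the adjusted p of that test lay from 0.0547 to 0.582.

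The later demethylation and reduction steps were uneven. Msmo1, the methylsterol oxidase, was at 10.3, 9.10 and 6.88 TPM in the WT and 9.31, 4.69 and 7.09 TPM in the MecomWT:R751W libraries, with overlap. Its log2 fold change was -0.30, and -0.08 without MecomWT:R751W replicate 2. Hsd17b7, a ketosteroid reductase of the same complex, was under the filter at 1.29, 1.02 and 1.06 TPM in the WT and 0.943, 0.382 and 0.724 TPM in the MecomWT:R751W libraries, not overlapping but on 17 to 54 reads a library. Nsdhl, the dehydrogenase of that complex, stood at 6.31 ± 0.488 and 6.40 ± 1.01 TPM.

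Of the last enzymes, Sc5d, the lathosterol desaturase, stood at -0.25 (SE 0.18) and Dhcr7, which reduces 7-dehydrocholesterol, at -0.12 (SE 0.19), both with overlapping groups. Ebp, the sterol isomerase, had the highest log2 fold change among synthesis genes, 0.12 (SE 0.16). Its values were 9.48, 8.17 and 7.82 TPM in WT and 8.35, 9.22 and 10.3 TPM in MecomWT:R751W, with overlapping groups. Tm7sf2, a sterol reductase, and Acat2, the cytosolic thiolase that makes acetoacetyl-CoA, stood at 0.04 each, with signs that turned when single libraries were left out. Without MecomWT:R751W replicate 3, at 6.12 TPM, Tm7sf2 stood at -0.30, and without MecomWT:R751W replicate 1, at 6.08 TPM, Acat2 stood at -0.26. Without WT replicate 1 Tm7sf2 stood at -0.15 and Acat2 at -0.01, and without WT replicate 2 Acat2 stood at -0.03. The 95% interval of the log2 fold change ran from -0.36 to 0.38 for Nsdhl and from -0.23 to 0.46 for Ebp.

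**Figure D2:**
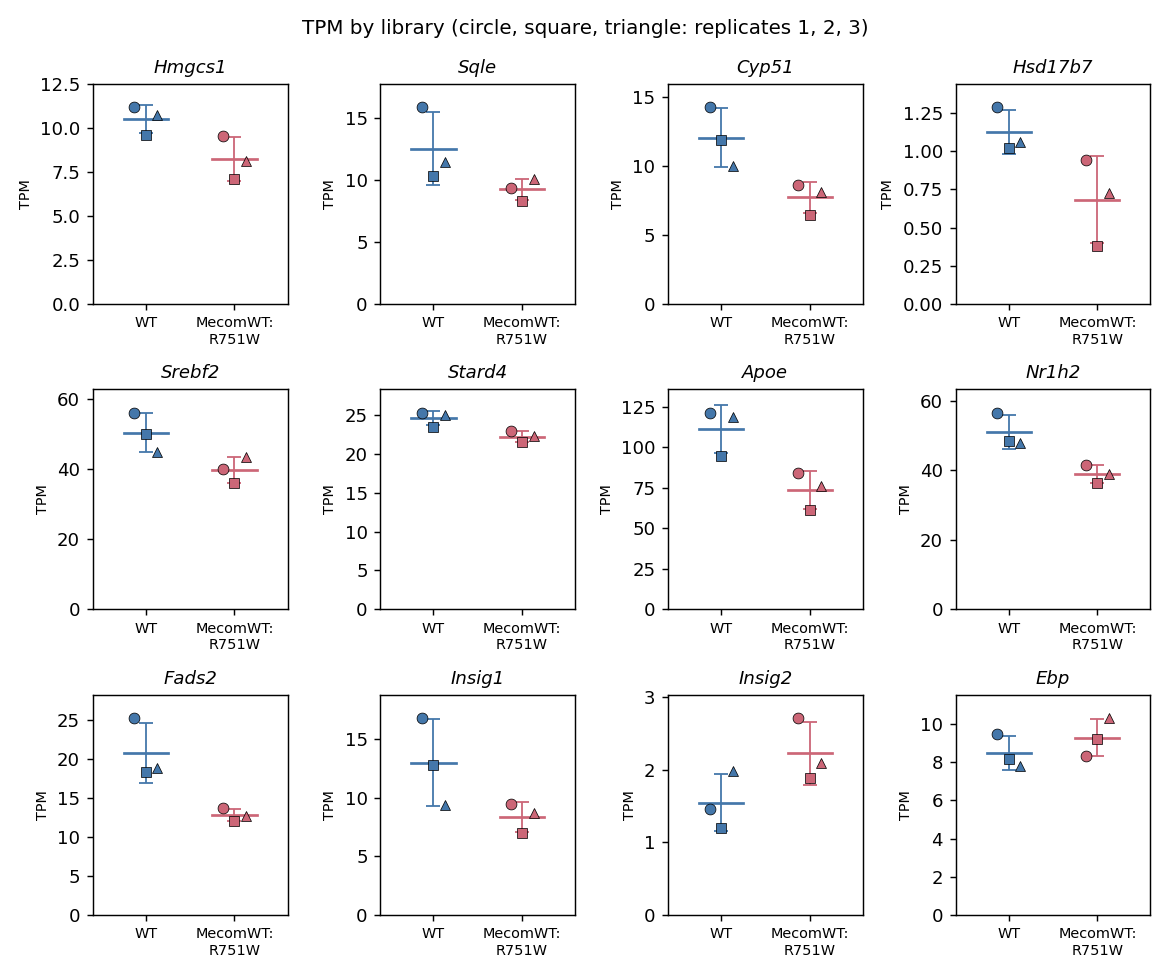
TPM by library (y axis, from 0) in WT (blue) and MecomWT:R751W (red) for the 9 sterol genes whose groups do not overlap, with Insig1, Insig2 and Ebp beside them. Bars are the mean and SD of 3 libraries, and circle, square and triangle are replicates 1, 2 and 3. Apoe runs from 94.7 to 121 TPM in WT and from 61.0 to 84.3 TPM in MecomWT:R751W.

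Among the SREBP control genes, 4 of 5 were below 0, with a median of -0.16, and the 2 INSIG paralogs differed in sign. Srebf2, which encodes SREBP-2, the main activator of the sterol genes, was among the most abundant of the 36. It lies on chromosome 15 from 82147269 to 82205379, with the microRNA gene Mir33 inside it. It was at 56.1, 50.0 and 45.0 TPM in the WT and 40.0, 36.1 and 43.4 TPM in the MecomWT:R751W libraries, on 1614 to 2363 reads a library. WT replicate 3 and MecomWT:R751W replicate 3 nearly met, and the groups did not overlap. The log2 fold change was -0.33 (SE 0.13, adjusted p = 0.77 by limma over all genes).

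Srebf1, which encodes SREBP-1 and is tied more to fatty acids, was at 21.1, 15.4 and 15.6 TPM in the WT and 16.5, 14.0 and 15.5 TPM in the MecomWT:R751W libraries. Apart from WT replicate 1 the libraries were alike, and the log2 fold change of -0.16 became -0.02 without that library. Scap, the SREBP escort, stood at 16.6 ± 1.00 and 16.1 ± 0.823 TPM.

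Insig1, itself a classic SREBP target, was at 16.8, 12.8 and 9.41 TPM in the WT and 9.48, 6.97 and 8.72 TPM in the MecomWT:R751W libraries. The groups overlapped by the pair of WT replicate 3 and MecomWT:R751W replicate 1. The log2 fold change was -0.55 (SE 0.20, adjusted p = 0.674 by limma over all genes), -0.36 without WT replicate 1 and -0.75 without WT replicate 3. Over protein-coding genes the adjusted p of limma was 0.0807 with all libraries and 0.00925 without WT replicate 3. With any other single library left out it lay from 0.0615 to 0.908, the latter without WT replicate 1. After rescaling it was 0.242, with the replicate block 0.198 and centred on the library median 0.277.

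Insig2 was the one sterol gene with a log2 fold change above 0.2, at 0.34 (SE 0.20). It was at 1.46, 1.197 and 1.98 TPM in the WT and 2.71, 1.88 and 2.09 TPM in the MecomWT:R751W libraries, where WT replicate 3 lay above MecomWT:R751W replicate 2. As a share of protein-coding TPM, and as TPM divided by the library median, the Insig2 groups no longer overlapped. How many of all genes were higher without overlap on these scales was not counted. Neither INSIG gene passed over all genes, and the difference between the paralogs was not tested.

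The promoters of these genes are shown because the known sterol response is read out there, through SREBP bound beside NF-Y and Sp1. Sequences are RefSeq promoters in GRCm38.p6, 5′ to 3′ on the gene's strand, from the stretch before the start that overlaps no GENCODE exon. Capitals mark matches, on either strand, to the sterol element TCACNCCAC, the NF-Y box CCAAT and the GC box GGGCGG, which share no letters with each other where printed. Hmgcs1, Cyp51, Insig1 and Srebf2 had lower means in MecomWT:R751W and Ebp did not.
Hmgcs1, chr13:119690151-119690350, plus strand: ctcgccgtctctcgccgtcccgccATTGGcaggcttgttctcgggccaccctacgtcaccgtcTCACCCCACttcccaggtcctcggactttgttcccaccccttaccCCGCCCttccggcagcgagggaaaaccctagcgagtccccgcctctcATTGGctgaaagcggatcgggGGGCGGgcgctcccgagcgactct
Cyp51, chr5:4104747-4104946, minus strand: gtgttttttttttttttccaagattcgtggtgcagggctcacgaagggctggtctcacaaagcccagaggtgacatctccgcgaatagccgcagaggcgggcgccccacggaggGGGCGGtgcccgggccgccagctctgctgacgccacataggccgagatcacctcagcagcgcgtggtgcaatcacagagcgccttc
Insig1, chr5:28071163-28071362, plus strand: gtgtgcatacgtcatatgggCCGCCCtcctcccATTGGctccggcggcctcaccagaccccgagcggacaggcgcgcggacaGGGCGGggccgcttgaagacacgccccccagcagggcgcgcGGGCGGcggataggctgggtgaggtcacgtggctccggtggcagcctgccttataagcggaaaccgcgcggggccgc
Srebf2, chr15:82147019-82147180, plus strand: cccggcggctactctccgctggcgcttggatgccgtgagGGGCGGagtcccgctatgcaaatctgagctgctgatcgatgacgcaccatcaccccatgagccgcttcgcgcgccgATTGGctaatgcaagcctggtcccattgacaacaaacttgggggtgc
Ebp, chrX:8193513-8193712, minus strand: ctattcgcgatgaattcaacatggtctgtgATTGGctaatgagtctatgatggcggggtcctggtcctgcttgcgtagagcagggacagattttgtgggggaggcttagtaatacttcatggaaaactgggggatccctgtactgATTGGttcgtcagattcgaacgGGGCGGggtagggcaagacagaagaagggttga

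Over the 250 bases before the start, 30 of the 36 genes had a RefSeq promoter. The letters TCACNCCAC were found in 1 of them, Hmgcs1, and in 1.14% of 9262 protein-coding genes tested that had a promoter. CCAAT was found in 22 of the 30 and in 41.3% of those protein-coding genes, and in 14 of the 15 synthesis genes with a promoter. GGGCGG was found in 23 of the 30 and in 63.3%, and also in 14 of the 15 synthesis genes. The CCAAT match of Cyp51 lies outside the stretch printed. Among the genes whose groups did not overlap, 4 of 7 with a promoter held CCAAT, against 18 of the other 23. For GGGCGG these counts were 5 of 7 and 18 of 23, and for TCACNCCAC 1 of 7 and 0 of 23. A match is a description of the sequence and no evidence of binding.

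The 3 uptake genes had a median of -0.20, with 2 below 0 and 0 called. Vldlr, the very low density lipoprotein receptor, was at 7.88, 6.29 and 4.94 TPM in the WT and 3.89, 4.43 and 5.62 TPM in the MecomWT:R751W libraries, overlapping by 1 library on each side, with a log2 fold change of -0.38 (SE 0.20), and -0.23 without WT replicate 1. Its relative Lrp8, the other receptor of that family here, stood at 9.77 ± 1.04 and 9.81 ± 0.245 TPM. Mylip, the LXR-induced ubiquitin ligase that removes lipoprotein receptors, was at 19.8 ± 3.91 and 17.1 ± 3.58 TPM.

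Transport and storage genes held the most abundant of the 36. Of 7 genes 5 were below 0, with a median of -0.15. Apoe, the lipoprotein component that carries cholesterol out of cells, lies on chromosome 7 from 19696244 to 19701310. It was at 121, 94.7 and 118 TPM in the WT and 84.3, 61.0 and 76.1 TPM in the MecomWT:R751W libraries of replicates 1, 2 and 3, on 1629 to 3408 reads a library. All MecomWT:R751W libraries lay under the lowest WT library, and the WT mean was 1.51 times the MecomWT:R751W mean. The log2 fold change was -0.59 (SE 0.15, 95% interval -0.92 to -0.27).

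Apoe did not pass over all genes (adjusted p = 0.358, limma), and its exact two-sided permutation p was 0.1, the smallest that 3 against 3 libraries allow. By limma over protein-coding genes, Apoe fell past the threshold (adjusted p = 0.00376). In that test it also did so after rescaling to the protein-coding total (0.0382) and with the replicate number as a block (0.0321). With limma-voom over all genes tested it passed too (adjusted p = 0.00416). It missed the threshold over protein-coding genes centred on the library median (adjusted p = 0.0519, limma) and without MecomWT:R751W replicate 2 (0.204). By limma over all genes it missed it with the replicate block (adjusted p = 0.277) and centred on the library median (0.276). There it also missed it with robust variance (0.254), array weights (0.168) and no variance trend (0.508). Macrophages are rich in Apoe, so their markers are given beside it. Of 12 macrophage genes 11 were listed, Adgre1 was not, and their summed level was 39.3 to 40.0 TPM in WT and 33.2 to 43.4 TPM in MecomWT:R751W. Of the 11 genes, 7 were below 0 and 4 above, with a median log2 fold change of -0.03. Spic, a factor of red pulp and marrow macrophages, had the smallest p of the list and stood at 1.895, 2.98 and 3.13 TPM among the WT and 1.42, 0.892 and 2.07 TPM among the MecomWT:R751W libraries, with overlap and a log2 fold change of -0.59 (SE 0.23). C1qc stood at 0.25, Cd5l at 0.17, C1qa at -0.15 and Csf1r at -0.06 on the same scale. Their part in the Apoe difference was not tested.

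Nr1h2, which encodes LXR-beta, was the abundant LXR gene of these cells, and Nr1h3, which encodes LXR-alpha, was near the filter. Nr1h2 was at 56.6, 48.6 and 47.8 TPM in the WT and 41.7, 36.4 and 38.9 TPM in the MecomWT:R751W libraries, with a clear gap between the groups. Its log2 fold change was -0.38 (SE 0.13, 95% interval -0.65 to -0.10), with an adjusted p of 0.63 by limma over all genes and 0.227 over protein-coding genes. Nr1h3 was at 1.29 ± 0.392 and 0.943 ± 0.316 TPM on 10 to 29 reads a library, with overlap.

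Stard4, a cytosolic sterol carrier, differed by little but evenly. It was at 25.3, 23.6 and 25.1 TPM in the WT and 22.9, 21.6 and 22.3 TPM in the MecomWT:R751W libraries, without overlap and with a log2 fold change of -0.14 (SE 0.13). The lysosomal exporters differed in sign, Npc1, the membrane protein, at -0.15 (SE 0.17) and Npc2, its soluble partner, at 0.14 (SE 0.16), both with overlapping groups. Soat1, which esterifies cholesterol for storage, stood at 11.9 ± 1.47 and 12.01 ± 0.862 TPM.

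Of the SREBP-regulated lipid genes, Fads2 had the lowest log2 fold change of all 36 on the log2(TPM + 1) scale. As the WT mean over the MecomWT:R751W mean, Lss at 1.68 and Hsd17b7 at 1.65 exceeded Fads2 at 1.62. Its neighbour Fads1 had a smaller difference, and the difference between Fads1 and Fads2 was not tested. Fads2, the delta-6 desaturase of polyunsaturated fatty acids, lies on chromosome 19 from 10062765 to 10101503, and Fads1, the delta-5 desaturase, on the same chromosome from 10182877 to 10196874. Fads2 was at 25.2, 18.3 and 18.8 TPM in the WT and 13.7, 12.1 and 12.6 TPM in the MecomWT:R751W libraries. The MecomWT:R751W libraries were tight, and WT replicate 1 stood high.

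The log2 fold change of Fads2 was -0.64 (SE 0.16, adjusted p = 0.326 by limma over all genes). It fell past the threshold over protein-coding genes (adjusted p = 0.00771, limma) and with limma-voom on all genes tested (0.0319). It missed it after rescaling to the protein-coding total (0.0519) and with the replicate block (0.0507). It also missed it over protein-coding genes when WT replicate 1 (0.244) or MecomWT:R751W replicate 2 (0.095) was left out. Fads1 was at 23.8 ± 2.29 and 21.7 ± 3.00 TPM, a log2 fold change of -0.14 (SE 0.15), with overlap. Lpin1, a phosphatidate phosphatase, stood at -0.13 (SE 0.16).

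**Figure D3:**
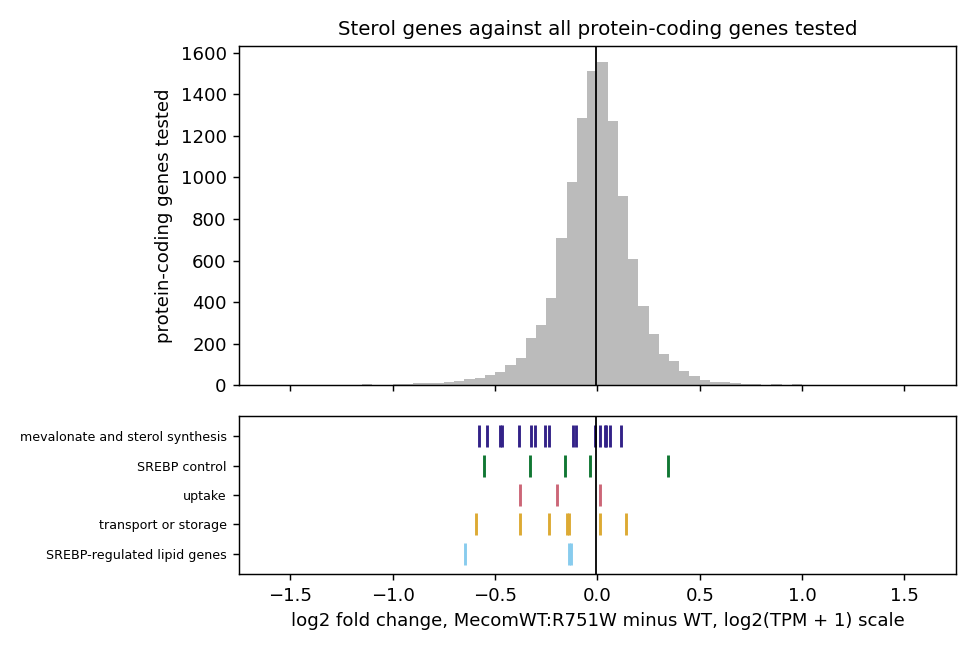
Log2 fold changes of the 11394 protein-coding genes tested (upper panel, counts in bins) and of the 35 tested sterol genes by role (lower panel, 1 tick a gene), on the same x axis. The black line is the median of the protein-coding genes, and 26 of the 35 ticks lie below 0.

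Of the genes in neighbouring parts of lipid metabolism, none passed over all genes by limma. Whether these lists differ from the sterol genes was not tested. In fatty acid synthesis 10 of 12 tested genes were below 0, with a median of -0.11. Scd2, a stearoyl-CoA desaturase, had the smallest p there, at 58.4 ± 6.88 TPM in the WT and 44.4 ± 3.47 TPM in the MecomWT:R751W libraries (log2 fold change -0.39, SE 0.13), while Elovl5, an elongase, stood at 0.23 and Acss2, which makes acetyl-CoA from acetate, at -0.23. Fasn, the fatty acid synthase itself, was at 22.6 ± 4.07 and 21.3 ± 0.857 TPM. The branch from farnesyl diphosphate to dolichol, ubiquinone and prenylated proteins had 7 of 14 genes below 0 and a median of -0.01, with Dhdds, a dolichol chain synthase, at 0.28, Rabggta at 0.25 and Rabggtb at 0.13.

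SREBP processing genes and cofactors had 6 of 14 below 0 and a median of 0.01. The largest size among them was -0.14 for Rnf139, an endoplasmic reticulum ubiquitin ligase, and Pgrmc1 stood at -0.09 and Erlin2 at 0.08. Of 17 further trafficking and lysosomal genes 12 were below 0, with a median of -0.05. Gramd1b, a carrier of cholesterol from the plasma membrane, was at 6.07 ± 1.46 and 4.18 ± 0.507 TPM (log2 fold change -0.43, SE 0.19), and Lrp1 stood at -0.38 and Tspo at -0.27. Of 8 tested oxysterol genes and LXR partners 3 were below 0, with Mid1ip1 at -0.26, Cyp27a1 at -0.18 and Lbr at 0.11.

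**Figure D4:**
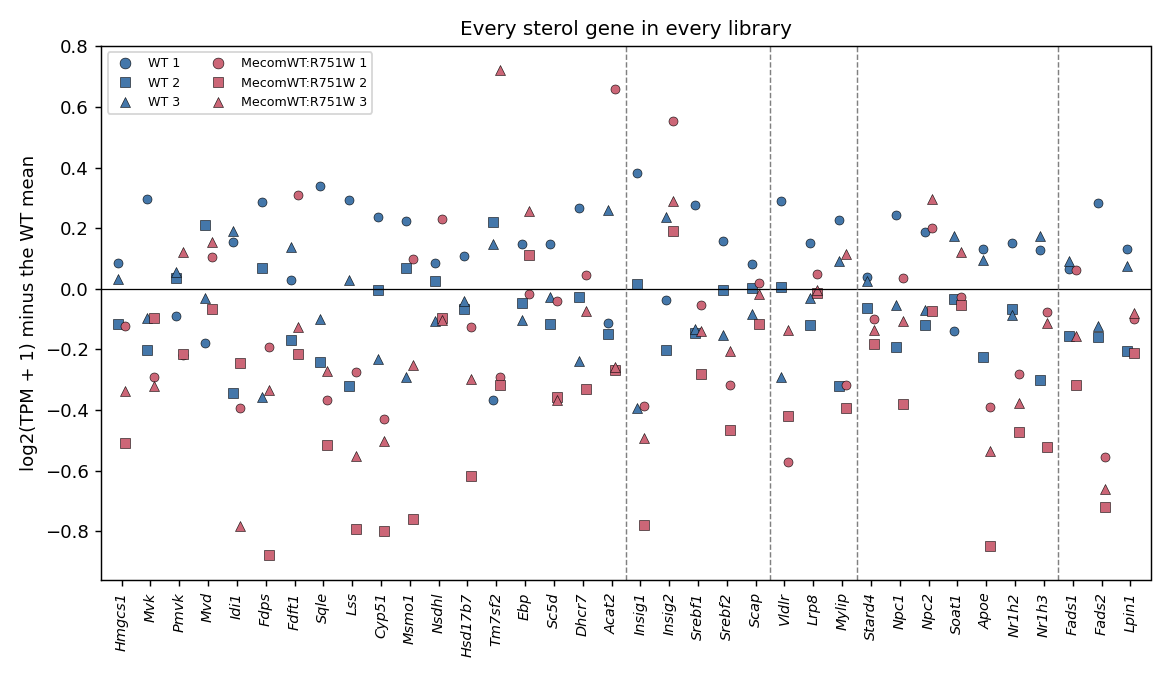
Every sterol gene (x axis, grouped by role between dashed lines) in every library, as log2(TPM + 1) minus the mean of the WT libraries (y axis), WT in blue and MecomWT:R751W in red with circle, square and triangle for replicates 1, 2 and 3. WT replicate 1 is highest of the 6 for 23 genes and MecomWT:R751W replicate 2 lowest for 23.

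WT replicate 1 and MecomWT:R751W replicate 2 stood at opposite ends for most sterol genes. WT replicate 1 held the highest of the 6 values for 23 of the 36 sterol genes, and for 32% of the protein-coding genes tested. MecomWT:R751W replicate 2 held the lowest for 23 of 36, and for 39.5% of protein-coding genes. Within WT alone, replicate 1 was highest for 26 of 36 sterol genes and for 53.2% of protein-coding genes. Within MecomWT:R751W alone, replicate 2 was lowest for 29 of 36 sterol genes and for 71.7% of protein-coding genes. Without WT replicate 1 the median of the SREBP control genes was -0.02 and that of the uptake genes -0.09.

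As a share of the summed TPM of protein-coding genes the groups did not overlap. The 36 genes took 0.192%, 0.183% and 0.176% of it among WT libraries 1, 2 and 3 and 0.150%, 0.142% and 0.150% in MecomWT:R751W. In TPM their sum was 579, 475 and 508 in WT and 447, 370 and 433 in MecomWT:R751W, and 458, 380 and 390 against 363, 309 and 357 without Apoe. On the share of protein-coding TPM 13 of the 36 were lower without overlap and 1, Insig2, was higher, while 8.41% of protein-coding genes tested were lower without overlap on that scale. Over the TPM divided by the library median the counts were 11 and 1, beside 7.86% of protein-coding genes lower. The share of all genes higher without overlap was not counted on these scales, so the count of 1 higher has no background beside it.

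Some other gene groups also differed in level between these libraries. The summed level of 14 listed immediate early genes was 1985, 1595 and 1101 TPM for WT libraries 1, 2 and 3 and 1420, 939 and 824 TPM in MecomWT:R751W. This sum was highest in WT replicate 1, as were most sterol genes. It was lowest in MecomWT:R751W replicate 3, while most sterol genes were lowest in MecomWT:R751W replicate 2. In this sum MecomWT:R751W replicate 1 lay above WT replicate 3. The 9 stem cell and gate genes summed to 418.5 to 486 TPM in the WT and 369.9 to 445.2 TPM in the MecomWT:R751W libraries. The sum of 11 proliferation genes was 606 to 694 TPM in WT and 689 to 773 TPM in MecomWT:R751W. The 8 erythroid genes summed to 12.1 to 16.6 TPM in WT and 21.3 to 33.8 TPM in MecomWT:R751W. T and NK cell genes, 4 of 9 listed with Cd3d, Cd3e and Cd3g not among them, summed to 8.44 to 9.58 and 18.6 to 21.2 TPM, and megakaryocyte genes to 139 to 190 and 113 to 167 TPM. The granulocyte, B cell and stromal lists had 2 of 8, 1 of 6 and 4 of 8 genes listed, and their sums overlapped between the groups. The part of these groups in the sterol gene differences was not tested.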

How the data were processed

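The authors deposited 1 table of TPM for 6 libraries (3 WT, 3 MecomWT:R751W). Per the submitters' processing notes, the authors worked on mm10 and had DESeq2 among their tools, in a role left unsaid. Not given in the sources used here are aligner, counter, strand setting and annotation, so reads of overlapping genes cannot be told apart. By RefSeq position, Fdft1 overlaps Ctsb, Tm7sf2 overlaps Vps51, Npc1 overlaps Rmc1 and Srebf1 overlaps Rai1, among other overlaps. The protocols list several library kits and do not say which was used. The members and lists were chosen with earlier results of these data known, and no list was tested as a set.

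All 18465 symbols matched RefSeq (GRCm38.p6), which gave gene types and positions. Whole reads were implied by the ratios of a gene's 6 values, given a scale for each library (100% of genes, tolerance 0.001 reads), and gave the depth.

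The test was limma 3.58.1 (R 4.3.3) on log2(TPM + 1), with a variance trend, genotype as the only term, a minimum mean of 1 TPM and Benjamini-Hochberg adjustment over all genes tested (threshold 0.05). Fold changes on this scale understate low genes. The test was checked on simulated data with larger fold changes than any sterol gene had and the same spread for every gene. That check does not cover differences of the size seen here. Every member was named. Of each neighbouring list, the 3 genes of smallest unadjusted p were named, and Fasn was added after its values were seen. Alternatives changed pseudocount, filter, rows, scaling, variance model, weights, replicate block and test, and left out each library. The fits over protein-coding genes with voom, block, centring or a library left out were added after the data were seen. Summaries used pandas 2.3.3 and numpy 2.4.6, and figures matplotlib 3.10.9, all in Python 3.11.15.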

Additional observations from a re-analysis of the deposited data

How the results depend on the processing

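Nr1h3 had 10 to 29 and Mvd 12 to 22 reads a library, so their values carry the most counting error. Over 690 recomputed member values, 662 kept their direction, and 26 of 35 members kept it in every setting counted. Settings that changed only the filter, the rows without rescaling, the variance model or the replicate block return the same fold change. Their values could not change direction, so these counts overstate how firm the directions are. The added fits over protein-coding genes were counted for Apoe, Fads2, Cyp51 and Insig1 alone. No member with a log2 fold change beyond 0.12 in size changed direction.

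Over all genes, limma called 0 higher and 0 lower. It called 1 and 1 with a mean of at least 5 TPM, 40 and 92 over protein-coding genes, 8 and 9 over protein-coding genes rescaled to their own total, 4 and 1 with robust variance, 0 and 1 with array weights, and 24 and 26 with limma-voom. Leaving out each library gave 0 to 6 higher and 0 to 9 lower. Sterol genes called were 0 over all genes, 2 over protein-coding genes, 1 after rescaling, 2 with limma-voom over all genes tested, 3 with limma-voom over protein-coding genes, 1 over protein-coding genes with the replicate block, and 0 to 4 over protein-coding genes leaving out each library. The share of all genes called in the fits over protein-coding genes leaving out each library was not counted. The causes were not tested.

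The SREBP control median of -0.16 ranged from -0.23 to -0.0185 leaving out each library, and the uptake median of -0.20 from -0.36 to -0.0853. The synthesis median of -0.24 was -0.09 with array weights. Genes whose direction reversed in a setting had a log2 fold change of at most 0.12 in size with all libraries over all genes. Some reversed values were larger, such as Tm7sf2 at -0.30 and Acat2 at -0.26. Centred on the library median, Fdft1 stood at 0.0027. With small and ribosomal RNA rows left out, Nsdhl stood at -0.0068, Lrp8 at -0.0072 and Soat1 at -0.0051. With array weights, Dhcr7 stood at 0.031, Scap at 0.016 and Soat1 at -0.037. Leaving out each library, Mvd ranged from -0.0267 to 0.17, Fdft1 from -0.17 to 0.0925, Nsdhl from -0.10 to 0.0673, Tm7sf2 from -0.30 to 0.22, Dhcr7 from -0.24 to 0.0138, Acat2 from -0.26 to 0.20, Scap from -0.0797 to 0.0026, Lrp8 from -0.0490 to 0.0858 and Soat1 from -0.0576 to 0.10.

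The replicate numbers are shared by the groups, and deviations of same-numbered libraries correlated at 0.140, 0.089 and 0.083 across genes for numbers 1, 2 and 3, each the highest for its library, a hint from the data and not the design. The replicate block gave 0 higher and 0 lower calls over all genes, and 5 and 24 in place of 40 and 92 over protein-coding genes.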
